A study of Mus musculus with 3 samples.

Results

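Genes that carry out the support functions of Müller glia were examined in neural retina of wild-type mice at postnatal day 7 (P7). The set was defined by name, from a list of 8 gene symbols: Glul, Slc1a3, Car2, Clu, Apoe, Vim, Cd9 and Crym. Every probe set whose only gene in the array's annotation was one of these was taken. This gave 10 probe sets from 7 genes, out of 12422 probe sets that were not controls and 8251 named genes. Glul, Clu and Apoe had 2 probe sets each and the other 4 genes had 1. No probe set carried the name Slc1a3, so this gene was not analysed here.

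The arrays were of the Affymetrix MG-U74Av2 type, as the sample titles say, and total RNA of 3 samples was measured on 1 array each. Every sample pooled neural retinas of 3 to 4 mice on a mixed 129/SvEv and C57BL/6 background, taken between 1 and 2 pm. The animals were wild type for Rp1, a photoreceptor gene, and came from litters that also gave Rp1-/- mice for other experiments. All 3 samples formed 1 group, so the data give the signal of each gene and its spread between pools, and no comparison of conditions. The samples are called pool 1, pool 2 and pool 3, in which the numbers are names only.

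Müller glia are the principal glial cells of the retina. They span its full thickness and are among the last cells born from retinal progenitors, in mice around the first postnatal week. They take up the transmitter glutamate through the transporter encoded by Slc1a3 (GLAST) and turn it into glutamine with glutamine synthetase, the product of Glul. They also buffer carbon dioxide and pH, export lipoproteins and chaperones, and brace the tissue with intermediate filaments. Other cells express most of these genes too: Car2 is also active in red blood cells and oligodendrocytes, Apoe in microglia and astrocytes, Vim in endothelium and lens, and Crym and Clu in some neurons. In RNA from whole retina, fewer cells of a type and less RNA per cell cannot be told apart.

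Intensities are the deposited values, scaled so that all arrays had the same median. Scaling moved pools 1, 2 and 3 by -0.06, 0.12 and -0.06 on the log2 scale. Background was judged from 75 genes that mark organs other than the eye (liver, gut, pancreas, testis and others). Their 90th percentile on an array was taken as its bar, and a probe set over the bar in all 3 pools is called above background. The bar stood at 328, 294 and 334 in pools 1, 2 and 3. A value under the bar is not a measured level, and the gene may still have been expressed. Intensities of different probe sets are not compared, because each probe set has its own affinity.

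Of the 10 probe sets, 7 lay above background in all 3 pools, against 36.5% of all 12422 probe sets. They came from 6 of the 7 measured genes, Glul, Car2, Clu, Apoe, Cd9 and Crym, whereas 43.0% of all genes were above background by the probe set chosen to represent them. The other 3 probe sets, the single one of Vim and the further ones of Clu and Apoe, were under the bar in every pool. With the bar at the 95th percentile 6 probe sets remained, without 94852_at of Glul, and with the 75th percentile there were 8, with 161294_f_at of Clu added. The share of all probe sets over these other bars was not counted, so the 6 and 8 cannot be set against other genes.

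Glutamine synthetase, which joins glutamate and ammonia into glutamine, was measured by both Glul probe sets. Probe set 94852_at had intensities of 423, 382 and 430 in pools 1, 2 and 3 (mean 412 ± 26.0, SD, n = 3 pools). The pools lay within 1.13-fold of each other, the narrowest range of all 10 probe sets, with pool 2 lowest. The signal was only 1.29, 1.30 and 1.29 times the bar, and it is the one member signal that a stricter bar removes. Probe set 161826_r_at gave 767, 989 and 1090 (949 ± 165, n = 3), 2.34 to 3.36 times the bar. The letter r marks probes picked under relaxed rules. The probe sets did not share an order: pool 3 was highest in both, but the lowest was pool 2 in one and pool 1 in the other, with deviations from their own means that differed by up to 0.33 on the log2 scale.

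Carbonic anhydrase 2, the cytosolic enzyme that interconverts carbon dioxide and bicarbonate, was far above background. Car2 was at 4979, 6616 and 4288 in pools 1, 2 and 3 (5294 ± 1195, n = 3), which is 12.8 to 22.5 times the bar. Pool 2 was highest and 1.54-fold above pool 3. Car2 is abundant in red blood cells, and the summed intensity of the red blood cell list was also highest in pool 2. So were 57.9% of all genes above background. The sum over 7 measured genes was 3864, 7979 and 3646, most of it from Hba-a1, and it includes the genes under the bar. In that list 2 genes were above background, the globin genes Hba-a1 (2914, 6705 and 2821) and Hbb-b2 (650, 1016 and 440), whose close paralogs can share probes, and the red cell carbonic anhydrase gene Car1, named after its values were seen, was under the bar in every pool (16.8, 12.3 and 25.6). The part of red blood cells in the Car2 values was not tested.

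Apolipoprotein E, the main lipid carrier secreted by glia, had the widest spread among members above background. Apoe probe set 95356_at read 5366, 6568 and 3413 in pools 1, 2 and 3 (5116 ± 1592, n = 3), or 10.2 to 22.3 times the bar. Pool 3 was the low one, with pool 2 at 1.92-fold its value. This fold was 1.69 without scaling and 1.63 after quantile normalisation, where pool 1 and not pool 2 was highest. Microglia also make Apoe. Their list had 4 of 16 genes above background and summed to 3058, 3349 and 3445, a sum that includes the 12 genes under the bar. Its genes above background were Cx3cr1 (402, 357 and 578), C1qc (387, 667 and 654), Ctss (373, 437 and 338) and Cd14 (581, 351 and 562), of which Ctss alone was lowest in pool 3. The part of microglia in the Apoe values was not tested. The further Apoe probe set, 161321_i_at, of a type with fewer probes than the design asked for, read 18.7, 40.3 and 115 and was under the bar in every pool. It ranked the pools in another way, and in pools 1 and 2 it was under the floor of 42.2 used for log2 values.

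Clusterin, a secreted chaperone also known as apolipoprotein J, was above background by probe set 95286_at. Clu was at 619, 848 and 660 in pools 1, 2 and 3 (709 ± 122, n = 3), 1.89 to 2.88 times the bar. Pool 2 was highest and pool 1 lowest, 1.37-fold apart. The further probe set 161294_f_at, whose letter marks probes that a family of similar sequences can share, read 200, 259 and 322 (260 ± 61.2, n = 3). It was highest in pool 3, where it came to 0.964 times the bar, and the deviations of both probe sets differed by up to 0.42 on the log2 scale.

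Vimentin, the intermediate filament protein of Müller glia, progenitors and many other cells, was not above background. Its single probe set 101046_at read 92.5, 82.0 and 225 in pools 1, 2 and 3 (133 ± 79.8, n = 3), 0.279 to 0.674 times the bar. Pool 3 was 2.74-fold above pool 2, but values under the bar have no reliable order. The data therefore give no level for Vim in this tissue. Lens cells also carry vimentin, and the lens list differed between pools: its 11 measured genes summed to 26931, 127500 and 136792, with 6 above background. Their part in the Vim values was not tested.

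The tetraspanin gene Cd9, which encodes a membrane protein that organises integrins and other partners, was at 851, 1093 and 843 in pools 1, 2 and 3 (929 ± 142, n = 3). Pool 2 was highest and pools 1 and 3 lay close together. The signal was 2.52 to 3.71 times the bar, and the range was 1.30-fold. Crym encodes mu-crystallin, which in mammals binds thyroid hormone in the cytosol. Crym was at 3317, 3705 and 3028 (3350 ± 340, n = 3), 9.06 to 12.6 times the bar and within 1.22-fold. Pool 3 was lowest, and the highest was pool 2, or pool 1 without scaling and after quantile normalisation.

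**Figure D1:**
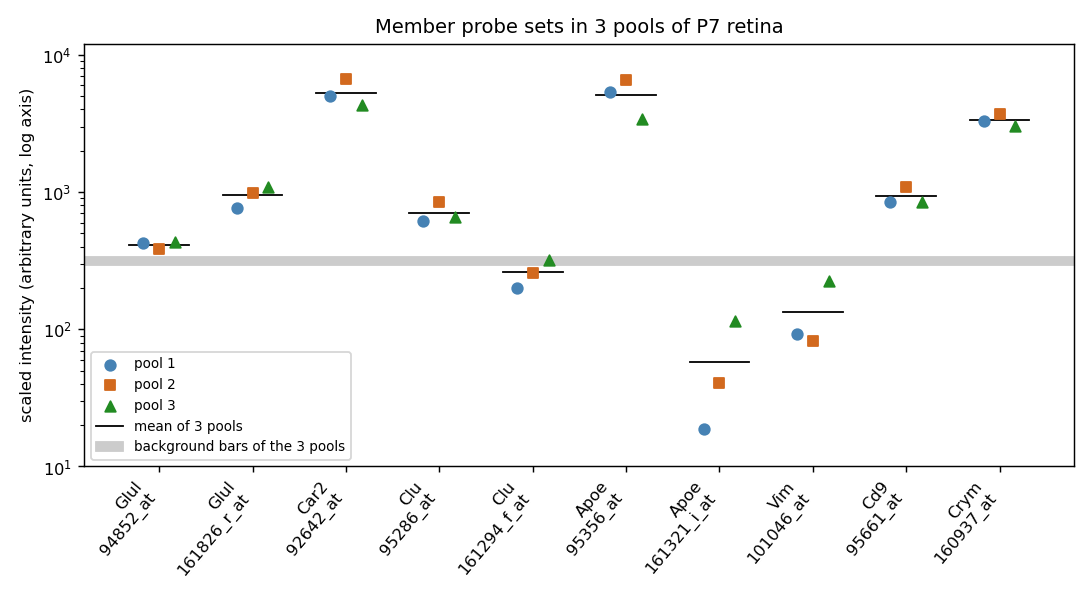
Scaled intensity (log axis) of each of the 10 member probe sets in pools 1, 2 and 3, with the mean as a line and the range of the 3 background bars, 294 to 334, in grey. Of the 10, 7 probe sets lie above the bars in every pool, and Vim, the further probe set of Apoe and that of Clu lie under them.

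To ask if any member varied more between pools than its brightness would lead to, the variance of each probe set over the 3 arrays was set against the variance that limma's squeezeVar estimated for probe sets of like signal. The test covered the brighter 50% of probe sets, 6211 in all. It could be run on 8 of the 10 member probe sets, since Vim and 161321_i_at of Apoe were too dim. No member was called at a limma adjusted p below 0.05, and of all 6211 only 83 (1.34%) were. At an unadjusted p below 0.05 the counts were 0 of 8 and 420 of 6211. With such shares over all probe sets, 0 of 8 does not set the members apart. Apoe came nearest (95356_at, SD 0.48 on the log2 scale, unadjusted p = 0.0526 and limma adjusted p = 0.751). The adjusted p of the other 7 lay between 0.992 and 0.998. In the alternatives in which Apoe had the lowest p of the set, the lowest adjusted p of the members lay between 0.266 and 0.989. The 0.266 came with no limit on brightness, where the dim 161321_i_at was tested too, and which Apoe probe set gave it was not recorded. With 3 pools the test had little reach, as the smallest SD among the 83 called was 0.78, so a difference between pools near 2-fold could have been missed.

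The spread of the members was like that of other probe sets. The median SD was 0.25 on the log2 scale for the 8 tested member probe sets and 0.26 for all 6211. Of the 8, 4 had an SD under that overall median. Apoe and Car2 had an SD above the value limma predicted for their brightness, and the other 6 had one under it. The share of all 6211 that lay under their predicted value was not counted, so this does not set the members apart. None of the 8 had a highest pool over 2-fold above its lowest, which 8.63% of the tested probe sets had. At the quiet end stood Glul 94852_at with an SD of 0.09, smaller than all but 8.34% of tested probe sets, and Crym with 0.15, smaller than all but 19.2%. At the other end Apoe was wider than 89.2% and Car2, with 0.32, wider than 65.7%. Without pool 2 the median SD of the members was 0.12.

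**Figure D2:**
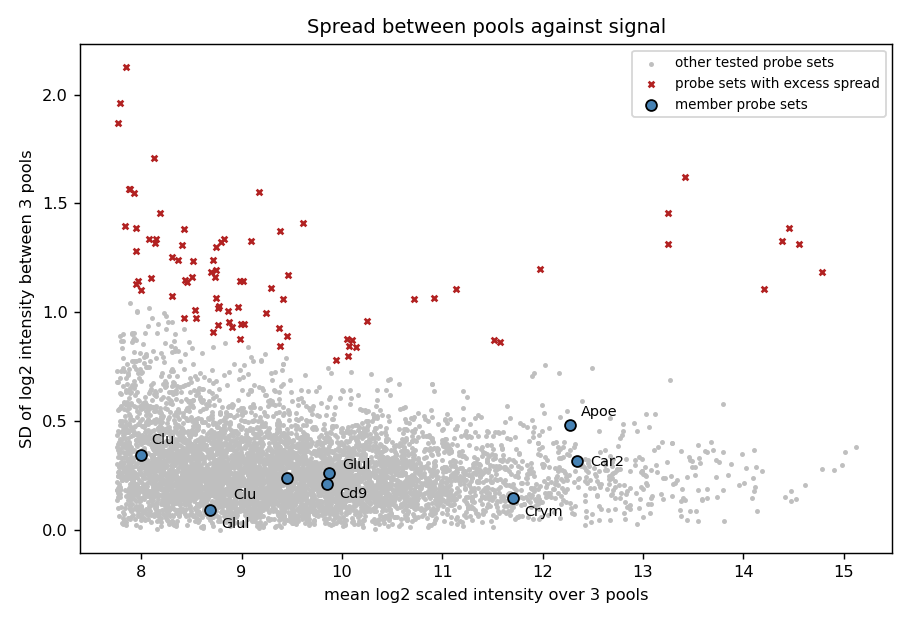
SD between the 3 pools (log2, vertical) against mean log2 scaled intensity (horizontal) for the 6211 tested probe sets, with the 83 called ones as red crosses and the 8 tested member probe sets labelled by gene. The members lie between an SD of 0.09 and 0.48, below every called probe set.

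Across the pools, 5 of the 6 genes above background were highest in pool 2 by their chosen probe set, Glul being the exception, and 4 of the 6 were lowest in pool 3. Among all 3550 genes above background, 57.9% were highest in pool 2 and 46.5% lowest in pool 3, so these positions were the commonest among all genes too. The median log2 deviation of the 6 genes was -0.04, 0.26 and -0.14 in pools 1, 2 and 3, beside -0.04, 0.13 and -0.09 for all genes above background. In pools 2 and 3 the members' value was 0.14 and -0.07 without scaling and 0.13 and -0.06 after quantile normalisation. The count of members highest in pool 2 was 4 without scaling and 3 after quantile normalisation, where 35.9% and 34.4% of all genes were highest in that pool. Pool 1 had the highest 3' to 5' ratio of the control transcript Actb (1.81, against 1.27 and 1.30), a measure of RNA length and labelling. The ratio of a second control, Gapdh, lay closer together, at 0.874, 0.788 and 0.812 in pools 1, 2 and 3. No member gene above background was highest in pool 1, where 25.2% of all genes above background were highest. Crym was highest there without scaling, as were 37.5% of all genes. Crym and Apoe were after quantile normalisation, as were 36.8%. The part of RNA quality in these values was not tested.

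**Figure D3:**
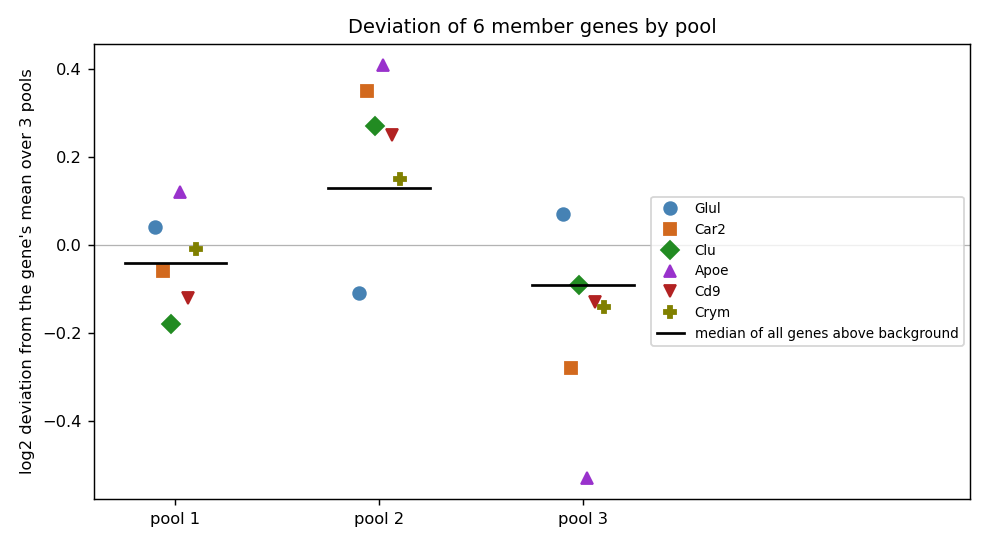
Log2 deviation of the chosen probe set of each of 6 member genes from its mean over the pools (vertical), by pool (horizontal), with the median of all 3550 genes above background as a black line. In pool 2 Glul alone lies below 0, and Apoe in pool 3 lies lowest at -0.53.

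Genes with the most similar pattern were sought among 3544 genes above background, by the Euclidean distance of the 3 log2 deviations. For Vim, which had the largest SD among the chosen probe sets, they were Slc48a1 (distance 0.28), H2-T18 (0.36) and Prph2 (0.38), all highest in pool 3. Since Vim was under the bar, these likenesses are to values that are not measured levels. For Apoe, the widest member above background and chosen for this after its values were seen, they were Hnrnpll (0.03), Ift20 (0.04) and Ambra1 (0.06), all highest in pool 2 and lowest in pool 3. Over only 3 pools a short distance carries little information.

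The pathways around the members were read through lists of related genes. In glutamate and glutamine handling, 7 of 18 measured genes besides Glul were above background. Among them were Slc1a1, a neuronal glutamate transporter gene, at 505, 437 and 497 in pools 1, 2 and 3, Slc1a4, a transporter gene for neutral amino acids, at 949, 975 and 1036, and the glutamate dehydrogenase gene Glud1 at 500, 442 and 683. Slc1a1 and Slc1a4 kept within 1.16-fold and 1.09-fold between pools. The glutamate transporter gene Slc1a2, named after its values were seen because it is a close relative of Slc1a3, was under the bar in every pool (249, 90.7 and 57.6). So were Slc1a5 and Slc1a6, named on the same ground. The further probe sets of Slc1a1 (117, 135 and 104) and Glud1 (14.1, 59.8 and 25.1) were under the bar too.

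Around Car2, 4 of 17 other genes for carbonic anhydrases and for bicarbonate, potassium and water transport were above background. Car14, which encodes the membrane-bound carbonic anhydrase of Müller glia, was at 1137, 1381 and 1013, highest in pool 2 and lowest in pool 3 as Car2 was. The anion exchanger genes Slc4a2 (877, 611 and 480) and Slc4a3 (947, 1379 and 1001) did not share an order. The water channel gene Aqp4, found in mature Müller glia and named after its values were seen, was under the bar in every pool (39.0, 41.2 and 43.8).

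In the list of lipid carriers and their receptors, 5 of 18 genes besides Apoe and Clu were above background. The lipid exporter genes Abca1 (1329, 1381 and 1033) and Abcg1 (1576, 1911 and 2311) had opposite ends in pool 3 by these probe sets, but a further probe set of Abca1, 97198_at, was highest there as Abcg1 was (410, 614 and 789). Among intermediate filament and linker genes other than Vim, 4 of 16 were above background: Nes, the nestin gene of progenitors and young glia (608, 575 and 560), the neuronal filament genes Ina (2271, 2472 and 2609) and Nefl (750, 463 and 489), and the lamin gene Lmnb2 (439, 445 and 344). Nes stayed within 1.09-fold by this probe set, but a further one, 161829_at, was under the bar in every pool (17.1, 12.4 and 21.7). Bfsp1, a lens filament gene, was the one gene of this list with excess spread (212, 606 and 1006, limma adjusted p = 6.22e-04), and its pool 1 value was under the bar. Gfap, the filament gene of astrocytes and stressed Müller glia and also named after its values were seen, was under the bar in every pool by its chosen probe set (52.2, 82.3 and 46.8), but a further probe set, 94144_g_at, read 207, 160 and 449 and passed it in pool 3.

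Among tetraspanins and their partners 7 of 16 genes besides Cd9 were above background. Cd81 (1601, 1931 and 1638), Cd63 (1586, 1509 and 1053) and Cd151 (610, 627 and 722) encode further tetraspanins, and these probe sets were highest in pools 2, 1 and 3 in that order. Another probe set of Cd151, 97930_f_at, was highest in pool 2 (509, 806 and 492). Its further probe sets were not above background: 161823_r_at (313, 483 and 583) was under the bar in pool 1, and 97931_i_at (7.22, 4.79 and 19.7) in every pool. Around Crym, 8 of 14 other genes of thyroid hormone handling were above background. The thyroid hormone receptor gene Thra was at 3847, 4240 and 3385, and the retinoid X receptor genes Rxra and Rxrb, whose products pair with it, were at 388, 774 and 650 and at 1457, 1565 and 1023. By these probe sets all 3 were highest in pool 2, but Thra and Rxrb were highest in pool 1 without scaling and after quantile normalisation. Further probe sets of Rxra (92235_g_at, 245, 343 and 590) and Thra (99077_at, 195, 278 and 286) were highest in pool 3. That of Thra was under the bar in every pool, and that of Rxra in pool 1. Excess spread was called for no gene besides Bfsp1 in these 6 lists.

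Müller glia were also represented by other genes of these cells, 15 of which were above background of 25 measured (60.0%, beside 43.0% of all genes). Rlbp1, the retinaldehyde-binding protein gene, read 3194, 3086 and 2420, and Dkk3, a secreted Dickkopf family gene, 2045, 3234 and 3030. The progenitor and glial transcription factor genes Sox2 and Hes1 read 1862, 1596 and 1602 and 395, 531 and 550. None of the 18 tested genes of this list had excess spread. Among genes of reactive glia 2 of 12 were above background, Stat3 (940, 862 and 972) and Timp1 (808, 698 and 1012), by their chosen probe sets. Both had a further probe set, which was not examined. In this list Serpina3n, an inhibitor gene induced in reactive glia, had excess spread (92.9, 255 and 634, limma adjusted p = 0.00142), but it passed the bar in pool 3 alone.

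Lists of other cells that the samples could hold ranged from mostly under the bar to mostly above it. Each gene is given here by its chosen probe set. Pdgfra, Mbp, Actc1, Col1a1, Pde6b and Crybb2 had further probe sets, which were not examined. The astrocyte list had 1 of 8 genes above background (Pdgfra, at 686, 1104 and 1039), with Gfap, Aqp4 and Slc1a2 under it, and the oligodendrocyte list 1 of 8 (the myelin gene Mbp, at 457, 446 and 376). The endothelial and pericyte list had 2 of 12, the receptor gene Kdr (1303, 1177 and 1168) and Eng (413, 622 and 344). The pigment epithelium and ciliary body list had 1 of 7 (Dct, at 347, 333 and 472), and the muscle and connective tissue list 2 of 14 (Actc1, at 539, 1051 and 713, and Col1a1, at 369, 570 and 404). The rod list had 10 of 12, among them Sag (12305, 15211 and 13639), Pde6b (5400, 7155 and 5523) and Pde6g (6604, 8277 and 7074). Excess spread was called for 2 of the 12 tested rod genes, Gnat1 (219, 699 and 680, limma adjusted p = 0.0162) and Prph2 (1261, 981 and 3901, limma adjusted p = 2.91e-04), both singled out after their values were seen. The lens list had 6 of 11 genes above background (54.5%), among them Cryaa (7413, 38200 and 39990), Cryba1 (7878, 26611 and 32487) and Crybb2 (1553, 5736 and 7275). All 8 tested genes of it had excess spread with the settings as reported. Of all tested probe sets 6 were called without scaling and 6 after quantile normalisation, so not all 8 lens calls held there. Pool 1 was low for these lens genes. By the chosen probe sets, Clu was the one member gene above background that was lowest in pool 1, at 1.37-fold below its highest pool. Of all 3550 genes above background, 37.7% were lowest in that pool, and 33.7% after quantile normalisation, where Cd9 joined Clu. The further Glul probe set, 161826_r_at, also above background, was lowest in pool 1 too (767, 989 and 1090).

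**Figure D4:**
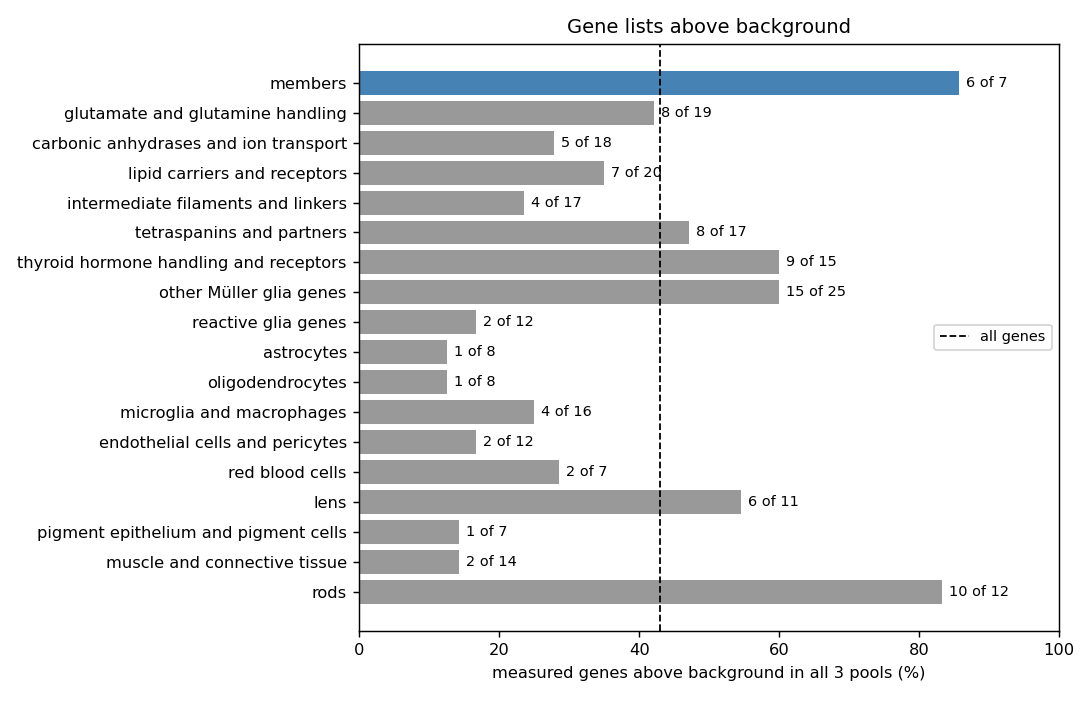
Share of measured genes above background in all 3 pools (horizontal, in percent) for the members in blue and 17 other gene lists in grey, members included where they belong to a list, with the number of genes beside each bar. The dashed line marks the 43.0% of all genes, and the members stand at 6 of 7.

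The promoters of 4 of the 7 measured genes, Glul, Apoe, Vim and Cd9, were held in the RefSeq-derived table (GRCm38.p6). They are shown to set the core promoter letters of genes from 1 cell type side by side. The data hold no measurement on promoters. Each window runs from 250 bases before to 50 after the start of the gene, 5′ to 3′ on the gene's strand, and the start farthest upstream of 3 was used for Apoe. Capitals mark the CCAAT box (CCAAT), the GC box (GGGCGG) and the TATA box (TATAAA), searched on both strands.
Glul, chr1:153899679-153899978, plus strand: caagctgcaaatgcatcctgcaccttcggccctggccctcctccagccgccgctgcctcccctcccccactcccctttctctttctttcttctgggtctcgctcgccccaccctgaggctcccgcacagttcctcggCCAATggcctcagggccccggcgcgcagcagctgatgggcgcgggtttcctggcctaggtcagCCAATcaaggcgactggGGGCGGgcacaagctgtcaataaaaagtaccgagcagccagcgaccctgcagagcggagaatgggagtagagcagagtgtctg
Apoe, chr7:19699139-19699438, minus strand: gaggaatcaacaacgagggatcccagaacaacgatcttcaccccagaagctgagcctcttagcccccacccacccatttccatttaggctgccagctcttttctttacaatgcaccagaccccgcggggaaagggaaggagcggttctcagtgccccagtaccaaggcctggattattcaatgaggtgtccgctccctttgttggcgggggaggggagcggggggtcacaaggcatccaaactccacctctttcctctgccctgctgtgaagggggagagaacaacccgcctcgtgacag
Vim, chr2:13574061-13574360, plus strand: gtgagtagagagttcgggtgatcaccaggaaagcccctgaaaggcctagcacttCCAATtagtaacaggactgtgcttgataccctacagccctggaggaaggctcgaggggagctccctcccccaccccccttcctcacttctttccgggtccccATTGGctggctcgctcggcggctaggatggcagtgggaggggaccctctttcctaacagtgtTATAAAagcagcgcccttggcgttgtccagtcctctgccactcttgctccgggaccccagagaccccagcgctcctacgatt
Cd9, chr6:125494711-125495010, minus strand: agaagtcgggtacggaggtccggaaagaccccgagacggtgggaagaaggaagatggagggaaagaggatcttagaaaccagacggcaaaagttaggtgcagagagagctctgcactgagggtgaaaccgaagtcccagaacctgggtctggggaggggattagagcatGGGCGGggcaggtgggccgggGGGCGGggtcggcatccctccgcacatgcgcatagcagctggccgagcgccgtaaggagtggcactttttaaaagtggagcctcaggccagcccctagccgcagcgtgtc

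Of 32851 windows of the same length, 37.4% held the CCAAT letters, 35.7% the GC box and 13.6% the TATA box. The Glul window held 2 CCAAT matches and 1 GC box, the Vim window 2 CCAAT matches and 1 TATA box, and the Cd9 window 2 GC boxes. The Apoe window held none of the 3. The windows were 57.7% to 64.3% G and C, against a median of 52.7%. A match describes letters and no site of binding, and Vim, the gene under the bar, had matches as Glul did.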

How the data were processed

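The authors deposited 1 intensity per probe set and array on a linear scale, per the values table. How it was made (software, background correction, detection calls) is not given in the sources used here. Its mean without the lowest and highest 2% was close to 500 on each array, so it had been scaled. From 12488 probe sets 66 controls were left out. Of the rest 10833 had 1 gene, 396 several and 1193 none. Names came from the platform annotation, with symbols updated by gene ID through RefSeq (GRCm38.p6) for 10817.

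Each array was scaled to the mean of the 3 array medians, and floored at the 20th percentile (42.2) for log2 values only. A gene was represented by a probe set without a letter suffix before any other, then by the highest mean. Excess spread was tested with limma 3.58.1 in R 4.3.3: squeezeVar (robust, with the mean as covariate), then an upper-tail F test with 2 residual degrees of freedom and Benjamini-Hochberg adjustment over 6211 probe sets, after a check on simulated data. The number of arrays limits the precision. The labels say of the replicates only that each pooled several animals, so p-values reflect the spread of these 3 samples, which may be partly technical.

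The members, lists and tests were chosen with earlier results of these data known. Named were all members, the first 4 genes above background of each list in its order (3 for lens and rods), genes with excess spread in the lists other than lens, rods and background, and the 3 genes nearest to a member. Other genes are marked where named. Alternatives were other scalings, floors, bars, filters, limma options and each pool left out.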

Additional observations from a re-analysis of the deposited data

How the results depend on the processing

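All alternatives were planned. The number of member probe sets above background was 6 to 8 and that of members with excess spread 0 in every alternative run. At an unadjusted p below 0.05 the latter count was 1, Apoe, after quantile normalisation and without pool 1 or pool 2. The share of all tested probe sets under that p was not counted in these settings, so this count does not set the members apart. Over all tested probe sets 83 had excess spread as reported, but 6 with the values as deposited, 6 after quantile normalisation, 0 with no limit on brightness, 27 in the brighter 25%, 38 with limma's non-robust prior and 9 to 30 with 1 pool omitted. The calls for Bfsp1, Serpina3n, Gnat1, Prph2 and the lens genes are therefore those of the settings as reported. None of them held with no limit on brightness, and which held in the other alternatives was not listed. The median SD of the members was 0.12 to 0.26 with 1 pool omitted, the lowest being that without pool 2. The median deviation of the member genes in pool 1 changed sign, within the spread between pools, to 0.02 without scaling, 0.05 after quantile normalisation and 0.04 without pool 2. In pool 2 it moved from 0.26 to 0.14, 0.13 and, without pool 3, 0.16, and in pool 3 from -0.14 to -0.07, -0.06 and, without pool 2, -0.04. When the probe sets of a gene were averaged it was -0.12, 0.15 and 0.00 in pools 1, 2 and 3. The 50 recomputed mean intensities of member probe sets all stayed within 1 SD. For those with 1 pool omitted this had to be so, because leaving out 1 of 3 values cannot move a mean that far. Only those with another scaling could have gone beyond it. With the bar at the 75th and 95th percentile the counts above background that moved by over 1.5 times were intermediate filaments (8 and 2, from 4), microglia (7 and 0, from 4), endothelium (5 and 1, from 2), red blood cells (2 and 1, from 2), muscle and connective tissue (2 and 1, from 2), oligodendrocytes (1 and 0, from 1) and pigment epithelium (1 and 0, from 1). The causes were not tested. No paired analysis was possible because the samples form 1 group.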
